A study of Mus musculus with 22 samples.

Results

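The genes described here are the components of Wnt signalling and of planar cell polarity, chosen by name from a list of 60 mouse gene symbols that covers ligands, their secretion, receptors, inhibitors, the cytoplasmic relay, nuclear factors and polarity proteins. Of these, 58 were held by the table of counts at embryonic stage E14.5, which lists 27124 genes, and 59 by the table at postnatal day 9 (P9), which lists 27504. *Sfrp2* was in neither table, and *Dkk2* was in the P9 table alone. The list was drawn up with earlier results of these data known, so counts of called members are a description of a chosen list and not of a blind one. RNA was sequenced from sorted tdTomato+ pancreatic endocrine cells, 100 cells per library, of *Isl1CKO* mice (5 libraries at E14.5 and 6 at P9) and of controls (6 libraries at E14.5 and 5 at P9). *Isl1CKO* mice carried *Isl1* f/f, a *Neurod1*-Cre driver and the Ai14 tdTomato reporter. Controls are called WT in the sample labels. The study describes the sorted control cells as *Isl1* f/+ with the same Cre and reporter, while its methods name *Isl1* f/+ or *Isl1* f/f mice as controls in general. Both groups were on a C57BL/6 background, with males and females. The Cre acts from the start of *Neurod1* expression, so the sorted cells are the whole *Neurod1* lineage and not 1 endocrine cell type. In such bulk libraries, fewer cells of a type and less RNA per cell cannot be told apart. The pancreas was dissociated with trypsin at E14.5 and with collagenase followed by trypsin at P9, so age and protocol cannot be told apart either.

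Wnt proteins are lipid-modified ligands that the carrier protein Wls brings to the cell surface. They bind Frizzled receptors together with the co-receptors Lrp5 and Lrp6, which stops the destruction of β-catenin so that it can act with TCF/LEF factors in the nucleus, or they act through Ror, Ryk and the Celsr and Vangl proteins on cell polarity without β-catenin. Secreted proteins such as Wif1 and the Sfrp family bind Wnts outside the cell, Groucho proteins (Tle) repress TCF targets, and Znrf3 and Rnf43 remove Frizzled from the membrane unless R-spondins and their Lgr receptors hold them back. In the pancreas these pathways are known for roles in the growth of the epithelium and in the maturation and polarity of islet cells.

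Libraries held 8477482 to 13580985 counts. Values per library are given as scaled counts, which are raw counts brought to the mean TMM-scaled library size of their age, so scaled counts of the 2 ages are not on 1 scale. Changes are log2 ratios of *Isl1CKO* over control, with their standard error after ±. *Isl1* counts were lower in *Isl1CKO* at E14.5, with a log2 change of -0.48 (adjusted p = 0.0063), and higher at P9, with one of 1.08 (adjusted p = 0.0081). These counts sum all exons, including any that the floxed allele keeps. Endocrine markers were present in all 22 libraries: the summed level of 10 such genes was 14102 to 19243 CPM (counts relative to the TMM-scaled library size) in E14.5 controls, 24687 to 28493 in E14.5 *Isl1CKO*, 14400 to 16017 in P9 controls and 33602 to 49730 in P9 *Isl1CKO*. *Chgb* alone was at 7287 to 11999 CPM in controls and 17309 to 20590 in *Isl1CKO* at E14.5, and at 940 to 1387 and 12351 to 30574 at P9. The 10 genes moved both ways: at an adjusted p under 0.05, 2 were higher and 3 lower at E14.5, and 4 higher and 1 lower at P9. The sum of 10 β-cell genes was 519790 to 730107 CPM in P9 controls and 100353 to 252601 in P9 *Isl1CKO*, and that of 10 α-cell genes was 22092 to 80558 and 6510 to 9166. Of 9 α-cell genes tested at P9, 3 were lower and 2 higher at an adjusted p under 0.05. *Gcg* alone was at 18643 to 75682 CPM in P9 controls and 54.3 to 3361 in P9 *Isl1CKO*. At E14.5 the β-cell sums overlapped, at 11243 to 39269 in controls and 4184 to 22026 in *Isl1CKO*, as did those of α-cell genes (17395 to 31837 and 12900 to 17733) and of 5 δ-cell genes (3373 to 8119 and 2017 to 3684). Single α-cell genes did differ at E14.5: 4 were lower and 1 higher at an adjusted p under 0.05. *Gcg* was at 6615 to 19216 CPM in E14.5 controls and 93.4 to 2739 in *Isl1CKO*. The sum of 10 endocrine progenitor genes was higher in every *Isl1CKO* library than in any control, at 813 to 1016 against 575 to 758 CPM at E14.5 and at 273 to 925 against 129 to 205 at P9. Not all of these genes rose. At an adjusted p under 0.05, 1 was higher at E14.5 and none lower, and at P9 1 was higher and 1 lower. At P9 *Fev* was at 41.7 to 109 CPM in *Isl1CKO* and 0.1 to 8.36 in controls, and *Btbd17* at 5.24 to 14.7 and 10.4 to 26.4. The sum of 9 endothelial markers was also apart at P9, at 13.3 to 25.7 CPM in *Isl1CKO* and 4.2 to 11.6 in controls, with the defining markers *Cdh5* and *Emcn* at no more than 0.73 CPM, and it overlapped at E14.5, at 23.0 to 30.1 and 13.0 to 27.7 over 8 markers. The groups compared therefore differ in the summed RNA of several of these marker lists, and the part of that difference in the results below was not tested. *Isl1CKO* library 5 at P9 stood apart from its group, with 925 CPM over the progenitor genes against 273 to 405 in the other 5.

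The promoters of *Wif1*, *Tle1* and *Wls* are shown because these genes rose in *Isl1CKO* and the RefSeq promoter table of GRCm38.p6 holds bases before their starts. *Gpc4* also rose, but its RefSeq window lies within the gene as GENCODE annotates it and is not shown. *Dkk3*, which rose at P9, has no entry. Each stretch is read 5′ to 3′ on the gene's own strand and ends just before the transcription start. It is chr10:121033754-121033959 on the plus strand for *Wif1*, chr4:72200920-72201143 on the minus strand for *Tle1* and chr3:159839400-159839649 on the plus strand for *Wls*.
Wif1: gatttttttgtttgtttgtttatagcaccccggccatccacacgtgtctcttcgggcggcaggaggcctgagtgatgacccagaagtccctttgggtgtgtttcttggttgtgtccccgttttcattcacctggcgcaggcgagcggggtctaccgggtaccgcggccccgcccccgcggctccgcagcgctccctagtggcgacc
Tle1: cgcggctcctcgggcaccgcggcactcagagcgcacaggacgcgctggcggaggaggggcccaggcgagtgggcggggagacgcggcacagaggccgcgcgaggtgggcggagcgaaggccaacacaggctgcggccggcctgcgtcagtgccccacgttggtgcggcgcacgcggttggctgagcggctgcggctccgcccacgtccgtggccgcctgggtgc
Wls: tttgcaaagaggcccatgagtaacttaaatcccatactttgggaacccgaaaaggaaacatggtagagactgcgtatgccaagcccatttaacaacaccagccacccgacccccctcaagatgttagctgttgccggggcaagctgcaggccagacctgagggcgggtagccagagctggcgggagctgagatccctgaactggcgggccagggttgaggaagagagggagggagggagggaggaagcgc
Capitals would mark the letters of TCF/LEF (CTTTGAT or CTTTGAA) or of LIM homeodomain motifs (CTAATG or CTAATT) on either strand, and none of these letters occurred in the 3 stretches. This search for exact letters in short stretches does not measure binding. From its own ISL1 binding data at E14.5, the study lists *Wif1* and *Tle1* among genes raised at P9 whose promoters ISL1 binds. The GC content was 61.7% in the *Wif1* stretch of 206 bases, 77.2% in the *Tle1* stretch of 224 bases and 58.0% in the *Wls* stretch of 250 bases. Over the 42 of 60 members in the table, with 1 window of 250 bases before the start for each, the TCF/LEF letters occurred in 2 (4.8%), *Dkk1* and *Wnt11*, and in 7.5% of all 32851 windows. LIM homeodomain letters occurred in 2 members (4.8%), *Fzd5* and *Tle2*, and in 13.2% of all windows. The median GC content of these windows was 67.4% over the members and 52.4% over all windows.

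At E14.5 the corepressor gene *Tle1*, the glypican gene *Gpc4* and the Wnt carrier gene *Wls* rose in *Isl1CKO* endocrine cells, and the secreted inhibitor gene *Frzb* and the ubiquitin ligase gene *Znrf3* fell. At P9 the secreted inhibitor gene *Wif1* and the dickkopf family gene *Dkk3* rose along with *Gpc4* and *Tle1*, and *Frzb* fell. Of the members, 50 had enough counts for a test at E14.5 and 45 at P9. At an adjusted p under 0.05 from edgeR's quasi-likelihood test, 5 of 50 (10.0%) changed at E14.5, where 1.43% of all genes tested did, and 5 of 45 (11.1%) at P9, where 4.81% did. At E14.5 the members split into 3 higher (0.602% of all genes) and 2 lower (0.827%), and at P9 into 4 higher (2.66%) and 1 lower (2.14%). An unadjusted p under 0.05 was reached by 12 members at E14.5, against 11.4% of all genes, and by 13 at P9, against 17.4%. The groups of libraries did not overlap in 6 members at E14.5, against 2.49% of all genes tested, and in 6 at P9, against 5.38%. The median log2 change of the members tested was -0.07 at E14.5 and 0.15 at P9, beside -0.0045 and 0.023 over all genes. The genes called were listed under secreted antagonists (with *Dkk3* placed there by family), ligand secretion (*Wls*) and receptors and co-receptors (*Gpc4*). The R-spondin module (*Znrf3*) and the nuclear factors (*Tle1*) also held a called gene. The Wnt ligands, the cytoplasmic relay and planar polarity held none.

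**Figure D1:**
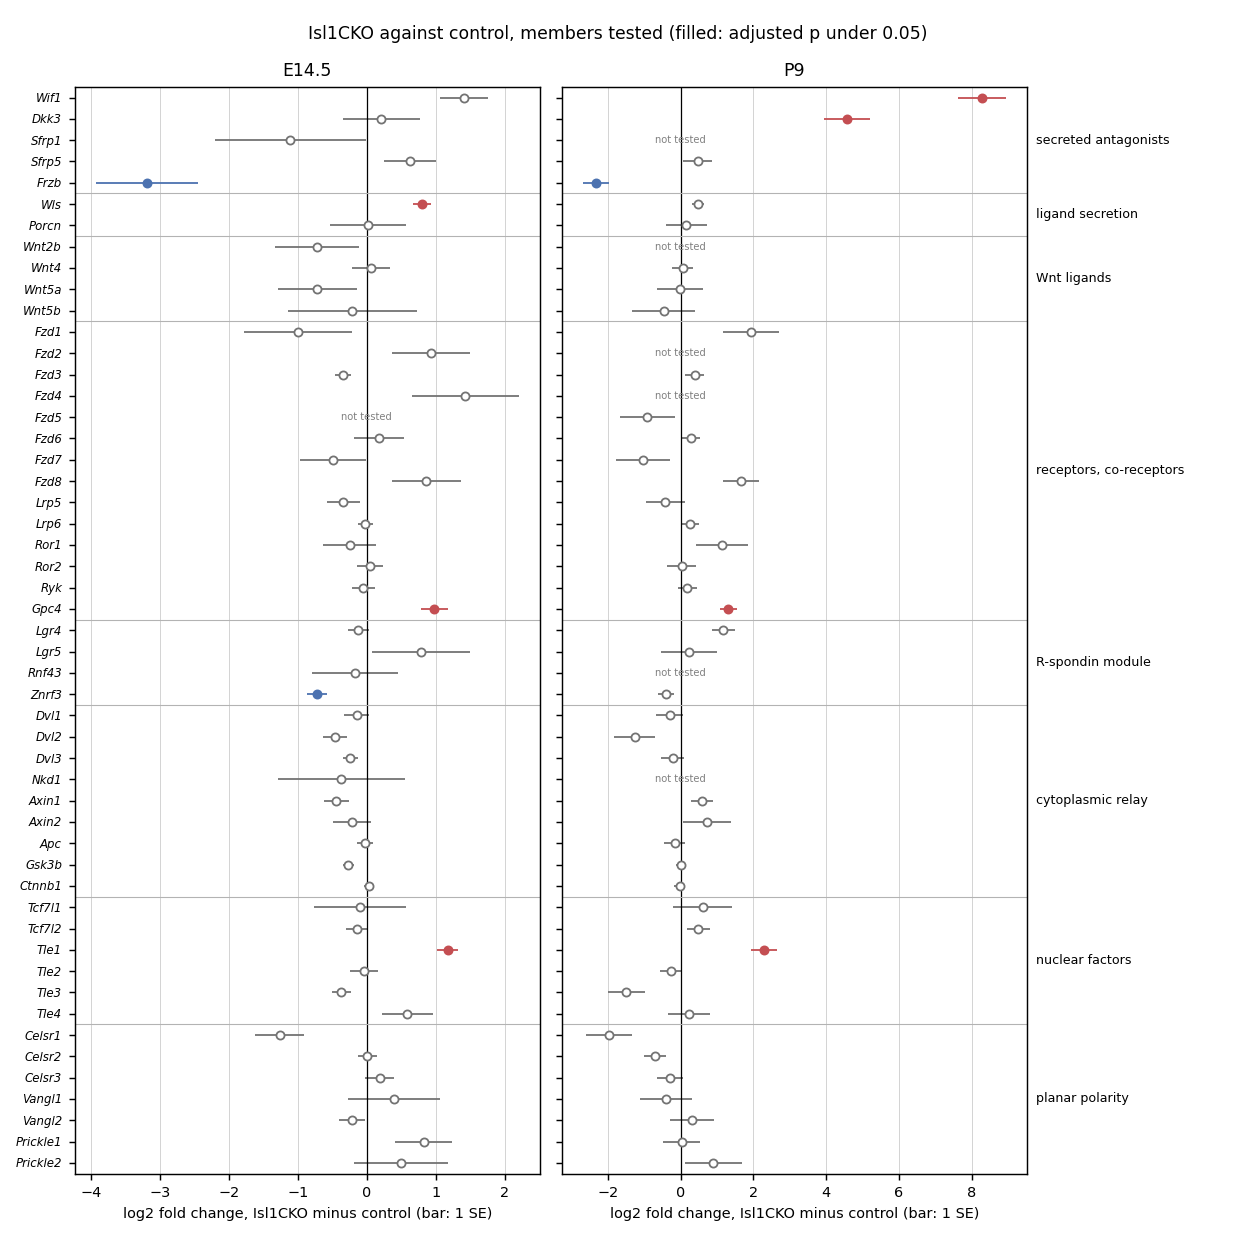
Log2 fold change (Isl1CKO minus control, horizontal axis) with 1 standard error for each member tested, by role, at E14.5 (6 control and 5 Isl1CKO libraries) and at P9 (5 and 6); filled points have an adjusted p under 0.05. At P9 Wif1 (8.28) and Dkk3 (4.56) lie far to the right of the other members, and Frzb is on the left at both ages.

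*Wif1* encodes Wnt inhibitory factor 1, a secreted protein that binds Wnts, and lies on chromosome 10 of GRCm38 from 121033960 to 121100650. At P9 its scaled count was 1.16, 1.26, 1.16, 1.33 and 0 in the 5 control libraries, and 126 to 725 with a median of 283 in the 6 *Isl1CKO* libraries. The transcript was at the level of single reads in every control and well above it in every *Isl1CKO* library. The sums were 4 counts in controls and 2434 in *Isl1CKO*, a ratio of 374 after scaling, with an exact 95% interval of 146 to 1374 that covers counting error only. The fitted log2 change was 8.28 ± 0.66 (SE, adjusted p = 4.4e-06). At E14.5 the controls ran from 44.4 to 230 with a median of 157, and the *Isl1CKO* libraries were at 202, 408, 428, 402 and 535. There the groups overlapped in 1 *Isl1CKO* library, and the log2 change of 1.41 ± 0.35 (SE, adjusted p = 0.063) missed the threshold. It passed with all libraries by DESeq2 (adjusted p = 0.0037), by limma-voom (adjusted p = 0.049) and over genes averaging at least 50 scaled counts (adjusted p = 0.038), and without *Isl1CKO* library 1 (adjusted p = 0.045). The effects at the 2 ages differed, the P9 effect being the higher, by a log2 value of 6.93 ± 0.77 (SE, adjusted p = 3.7e-05 for the interaction of genotype and age). In controls, *Wif1* was lower at P9 than at E14.5, with a log2 difference of -6.20 ± 0.65 (SE, adjusted p = 1.2e-07), whereas its level per kilobase of exon in *Isl1CKO* was 10.0 ± 3.10 CPM at E14.5 (SD, n = 5) and 16.7 ± 10.5 at P9 (SD, n = 6).

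*Dkk3*, which encodes a secreted member of the dickkopf family, is on chromosome 7 from 112116017 to 112159057. Its P9 scaled counts were 6.98, 12.6, 4.65, 3.99 and 51.0 in controls and 228 to 611 with a median of 332 in *Isl1CKO*. Control library 5 was the highest control, and it still lay below the lowest *Isl1CKO* library. Its log2 change was 4.56 ± 0.64 (SE, adjusted p = 0.00061), and 5.74 without control library 5. At E14.5 the gene ran from 6.91 to 136 in controls and was at 67.6, 49.6, 86.6, 56.5 and 73.5 in *Isl1CKO*, within the range of the controls. The interaction was 4.35 ± 0.88 on the log2 scale (SE, adjusted p = 0.0082). *Wif1* and *Dkk3* were the members whose *Isl1CKO* effect differed between the ages, 2 of 52 tested (3.8%) where 2.08% of all genes did. Both effects were higher at P9, as in 1.23% of all genes.

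*Frzb*, on chromosome 2 from 80411970 to 80447625, encodes a secreted Frizzled-related protein and had the highest level per kilobase of any member in P9 controls. Its scaled counts at P9 were 2426, 2959, 3406, 2386 and 2395 in controls and 180 to 957 with a median of 499 in *Isl1CKO*. The highest *Isl1CKO* library was below the lowest control, and the log2 change was -2.34 ± 0.35 (SE, adjusted p = 0.0011). At E14.5 the controls ran from 53.9 to 570 with a median of 195, and the *Isl1CKO* libraries were at 30.03, 58.7, 38.1, 1.03 and 9.63. One *Isl1CKO* library lay above the lowest control, and the log2 change of -3.19 ± 0.74 (SE, adjusted p = 0.049) was called in 1 of the 11 fits with a library left out, that without control library 5. The E14.5 fall was accompanied by a lower sum of the 7 mesenchyme markers in the table, of 12 listed, 22.0 to 103 CPM in controls and 13.5 to 26.3 in *Isl1CKO*. Control library 1, the highest in *Frzb*, had the sum of 22.0. The part of mesenchymal RNA in the fall was not tested. At P9 the sums of 9 of the 12 markers overlapped, at 8.2 to 66.8 and 3.5 to 38.2 CPM. Without the controls with the highest sums, libraries 3 and 4, the log2 change of *Frzb* was -2.29 (adjusted p = 0.014). Leaving out these controls cannot settle the part of mesenchymal RNA at P9, which was not tested.

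*Sfrp5*, a gene of the same Frizzled-related family, was not called at either age. It was at 34.0 to 130 scaled counts in E14.5 controls and 102 to 178 in *Isl1CKO*, and at 108 to 407 in P9 controls and 129 to 525.9 in *Isl1CKO*. The log2 changes were 0.63 (adjusted p = 0.57) and 0.47 (adjusted p = 0.62). Among the other antagonists, *Sfrp1* had a log2 change of -1.11 ± 1.10 at E14.5 (SE, adjusted p = 0.78) from low counts. *Dkk1*, *Notum* and *Sfrp1* had group means under 9 scaled counts at both ages, as did *Dkk2* at P9. *Dkk1* had 0 counts in all 5 *Isl1CKO* libraries at E14.5, which allows up to 3 counts in each, and up to 20.7 scaled counts in 1 control.

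**Figure D2:**
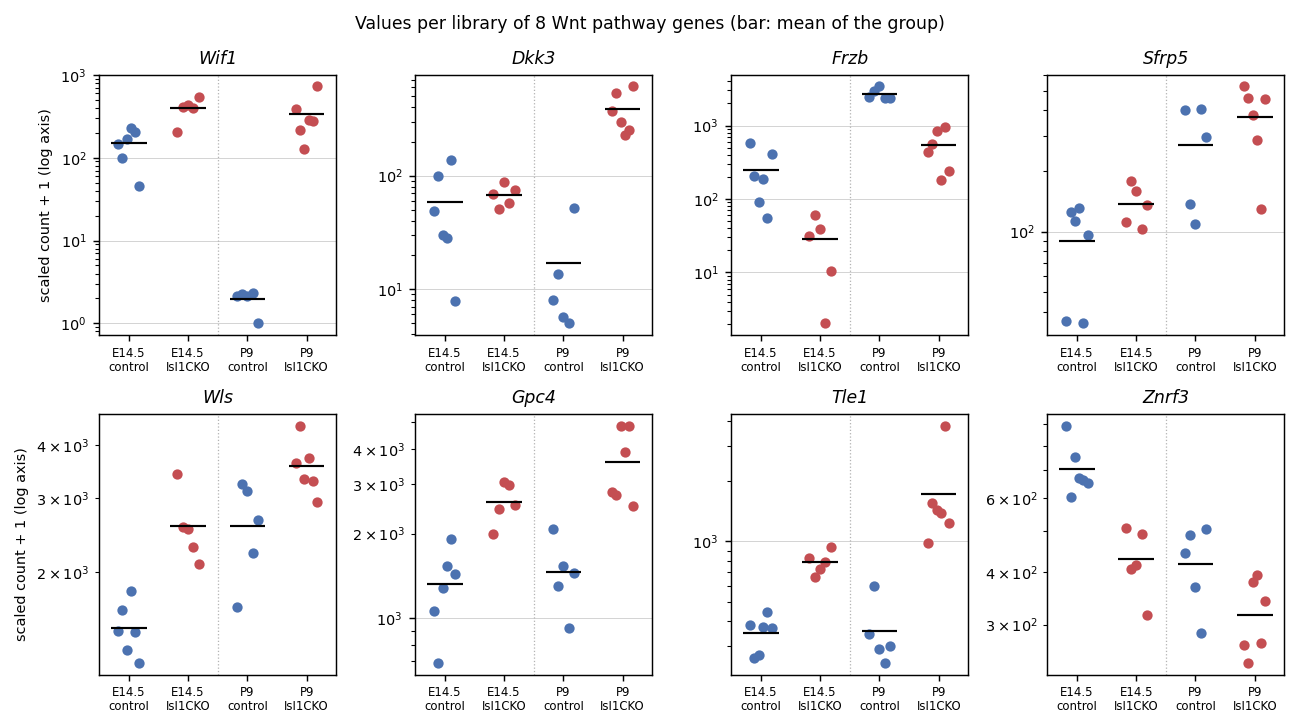
Scaled counts plus 1 (log axis) of 8 genes in every library, by age and genotype, with the mean of each group as a bar; the scale is set within each age. Wif1 sits at 0 to 1.33 scaled counts in the 5 P9 controls and at 126 to 725 in the 6 Isl1CKO libraries, while Frzb is lower in every P9 Isl1CKO library than in any control.

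*Wls*, on chromosome 3 from 159839672 to 159938664, encodes the transmembrane carrier that Wnts need to leave the cell. At E14.5 it was at 1215 to 1802 scaled counts in controls, with a median of 1444, and at 3423, 2556, 2532, 2286 and 2083 in *Isl1CKO*. Every *Isl1CKO* library was above every control. The log2 change was 0.81 ± 0.13 (SE, adjusted p = 0.0057) and was called in all 11 fits with a library left out. At P9 the controls were at 1650, 3241, 3109, 2222 and 2651 and the *Isl1CKO* libraries at 2932 to 4450, and the groups overlapped. There the log2 change of 0.47 ± 0.17 (SE, adjusted p = 0.15) did not pass, and the difference from the effect at E14.5, -0.33 ± 0.22 on the log2 scale (SE, adjusted p = 0.53), did not pass either. *Porcn*, which encodes the acyltransferase that puts the lipid on Wnts, had mean scaled counts of 46.5 and 47.1 in E14.5 control and *Isl1CKO* cells and of 48.5 and 53.8 at P9, with adjusted p of 0.99 and 0.94.

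No Wnt ligand gene was called between the genotypes. *Wnt4* was the most abundant of the 7 ligands per kilobase in every group. It was at 106 to 267 scaled counts in E14.5 controls and 141 to 264 in *Isl1CKO*, and at 630 to 864 in P9 controls and 426 to 1568 in *Isl1CKO*, where library 5 was the highest. Its log2 changes were 0.06 ± 0.27 (SE) and 0.05 ± 0.29 (SE). *Wnt5a*, a ligand of the polarity branch, had log2 changes of -0.71 ± 0.57 (SE) and -0.02 ± 0.64 (SE), and *Wnt5b* had -0.21 and -0.47. *Wnt2b* was tested at E14.5 alone, with -0.72. *Wnt7b*, *Wnt9a* and *Wnt11* were too low to test at both ages, with group means of at most 13.96 scaled counts.

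*Gpc4* was the surface component that changed at both ages. It encodes glypican 4, a heparan sulfate proteoglycan that binds Wnts at the membrane, and lies on chromosome X from 52053021 to 52165252. At E14.5 the controls ran from 691 to 1915 scaled counts with a median of 1354, and the *Isl1CKO* libraries were at 1994, 2456, 3055, 2972 and 2535. This was a log2 change of 0.98 ± 0.20 (SE, adjusted p = 0.026), and the call was lost without control library 1 or 3 or *Isl1CKO* library 2, 3, 4 or 5, with adjusted p up to 0.075. At P9 the controls were at 2080, 1300, 1535, 917 and 1440 and the *Isl1CKO* libraries at 2500 to 4859 with a median of 3371. At that age the log2 change was 1.31 ± 0.23 (SE, adjusted p = 0.0036), called in all 11 fits with a library left out. Neither age showed an overlap of the groups, and in *Isl1CKO* *Gpc4* had the highest level per kilobase of the members at both ages, 60.6 ± 10.0 CPM (SD, n = 5) at E14.5 and 164 ± 48.2 (SD, n = 6) at P9.

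Among the Frizzled receptors none was called. *Fzd8* came nearest at P9, with 75.7, 49.1, 123, 33.3 and 84.6 scaled counts in controls and 56.7 to 423 with a median of 227 in *Isl1CKO*. Its lowest *Isl1CKO* library was library 5. The log2 change was 1.66 ± 0.50 (SE, adjusted p = 0.073), and without library 5 the adjusted p was 0.021. *Fzd3*, the most abundant Frizzled per kilobase at E14.5, had log2 changes of -0.34 ± 0.11 (SE, adjusted p = 0.21) and 0.38 ± 0.26 (SE, adjusted p = 0.52). *Fzd1* had 1.93 ± 0.76 at P9 (SE, adjusted p = 0.18) from low counts, with controls from 6.97 to 54.2 and *Isl1CKO* libraries from 17.5 to 164. The remaining Frizzled genes tested, *Fzd2*, *Fzd4*, *Fzd5*, *Fzd6* and *Fzd7*, had adjusted p of at least 0.53.

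The co-receptor genes *Lrp5* and *Lrp6*, of the LDL receptor family, were not called. *Lrp6* had log2 changes of -0.02 ± 0.11 (SE) at E14.5 and 0.26 ± 0.24 (SE) at P9, and *Lrp5* had -0.34 and -0.43. The receptor tyrosine kinase-like genes *Ror1*, *Ror2* and *Ryk* had log2 changes of -0.24, 0.05 and -0.05 at E14.5 and of 1.13, 0.02 and 0.18 at P9, with adjusted p of at least 0.47.

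*Znrf3*, which encodes the membrane ubiquitin ligase that clears Frizzled and is itself a known β-catenin target, fell at E14.5. It lies on chromosome 11 from 5276324 to 5444847. Its scaled counts were 603 to 891 in controls, with a median of 665, and 510, 406, 415, 492 and 316 in *Isl1CKO*, with no overlap. This gave a log2 change of -0.72 ± 0.15 (SE, adjusted p = 0.026), and the call was lost without control library 3 or *Isl1CKO* library 2, 3 or 5, with adjusted p up to 0.072. At P9 the controls were at 442, 490, 367, 286 and 507 and the *Isl1CKO* libraries at 243 to 393, a log2 change of -0.41 ± 0.22 (SE, adjusted p = 0.38) with overlap. *Lgr4*, an R-spondin receptor gene, was at 462, 368, 324, 225 and 279 in P9 controls and at 317 to 1122 with a median of 801 in *Isl1CKO*. That log2 change of 1.17 ± 0.33 (SE, adjusted p = 0.052) was just short of the threshold, and passed without *Isl1CKO* library 1 or 2. At E14.5 *Lgr4* had -0.12 ± 0.15 (SE). *Lgr5* and *Rnf43* were low, with group means of at most 39.6 scaled counts, and neither was called. At P9 *Lgr5* was at 125, 7.55, 8.14, 12.0 and 16.3 scaled counts in controls and at 21.3 to 57.5 in *Isl1CKO*. Control library 1 alone lay above the *Isl1CKO* libraries.

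At E14.5 the macrophage markers were highest in 3 *Isl1CKO* libraries, 1 of which was close to the highest control. The sum of 8 macrophage markers was 97.9, 136 and 65.3 CPM in *Isl1CKO* libraries 3, 4 and 5, against 39.9 and 44.8 in the other *Isl1CKO* libraries and 38.4 to 62.1 in controls. Without these 3 libraries *Wls* alone was called, with a log2 change of 1.03 (adjusted p = 0.025), and *Tle1* had 1.09 (adjusted p = 0.105), *Gpc4* 0.76 (adjusted p = 0.52), *Znrf3* -0.62 (adjusted p = 0.41) and *Frzb* -2.49 (adjusted p = 0.48). That fit has 2 *Isl1CKO* libraries, and over all genes it called 42 in place of 228. Calls lost in it therefore cannot be told apart from the loss of libraries, and the part of macrophage RNA was not tested. The directions of all 5 genes stayed as they were.

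The cytoplasmic relay held no called member at either age. *Ctnnb1*, the β-catenin gene and the most abundant member per kilobase in E14.5 controls, had 3778 ± 223 scaled counts (SD, n = 6) in E14.5 control cells, while *Isl1CKO* cells had 3864 ± 241 (SD, n = 5). At P9 it had 1399 ± 238 (SD, n = 5) and 1367 ± 184 (SD, n = 6). Its log2 changes were 0.03 ± 0.068 (SE) and -0.03 ± 0.15 (SE). *Gsk3b*, the kinase gene of the destruction complex, had -0.27 ± 0.081 (SE, adjusted p = 0.16) at E14.5 and -0.0002 ± 0.12 (SE) at P9. The scaffold gene *Axin1* had -0.44 at E14.5 (adjusted p = 0.37) and 0.58 at P9 (adjusted p = 0.34), and *Apc* had -0.03 and -0.17. *Axin2*, a feedback inhibitor widely read as a β-catenin target, was at 117 to 266 scaled counts in E14.5 controls and 95.4 to 202 in *Isl1CKO*, and at 8.14 to 84.3 in P9 controls and 15.8 to 152 in *Isl1CKO*, with adjusted p of 0.85 and 0.66. Of the dishevelled genes, *Dvl2* was lower in every *Isl1CKO* library at E14.5, at 173, 190, 170, 206 and 199 scaled counts against 215 to 349, but its log2 change of -0.46 ± 0.17 (SE, adjusted p = 0.30) did not pass, nor did that of -1.27 ± 0.57 at P9 (SE, adjusted p = 0.26). The feedback inhibitor gene *Nkd1* had -0.37 ± 0.92 at E14.5 (SE) and was too low to test at P9. *Dvl1* and *Dvl3* had -0.15 and -0.24 at E14.5 and -0.31 and -0.23 at P9.

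*Tle1*, which encodes a Groucho corepressor that binds TCF/LEF and other factors, rose at both ages. It lies on chromosome 4 from 72117142 to 72200919. At E14.5 it was at 261 to 444 scaled counts in controls, with a median of 369, and at 828, 660, 731, 785 and 933 in *Isl1CKO*. The groups were well apart, with a log2 change of 1.17 ± 0.15 (SE, adjusted p = 0.00099) called in all 11 fits with a library left out. At P9 the controls were at 342, 598, 287, 246 and 297 and the *Isl1CKO* libraries at 984 to 3795 with a median of 1407. Library 5 was the highest, and the log2 change went from 2.29 ± 0.35 (SE, adjusted p = 0.0011) to 1.90 (adjusted p = 0.00028) without it. The effect at P9 minus that at E14.5 was 1.12 ± 0.39 on the log2 scale (SE, adjusted p = 0.14), which did not pass.

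None of the other Groucho genes was called. *Tle3* was at 498, 623, 509, 651 and 294 scaled counts in P9 controls and at 83.7, 132, 52.7, 129, 597 and 100 in *Isl1CKO*, so library 5 alone was within the range of the controls. The log2 change was -1.49 ± 0.51 (SE, adjusted p = 0.12), and -2.37 (adjusted p = 0.00036) without library 5. At E14.5 *Tle3* had -0.37 ± 0.14 (SE, adjusted p = 0.31). *Tle2* had -0.04 and -0.27, and *Tle4* had 0.59 and 0.23, with adjusted p of at least 0.59. Among the TCF/LEF genes *Tcf7l2*, a member of that family known to be expressed in islets, had log2 changes of -0.14 ± 0.16 (SE) and 0.48 ± 0.32 (SE), with adjusted p of 0.83 and 0.50. *Tcf7l1* had -0.10 and 0.60 from low counts, and *Tcf7* and *Lef1* were too low to test at either age, with group means of at most 11.2 scaled counts.

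No planar polarity gene passed edgeR's test, and 1, *Celsr1*, was called lower by DESeq2 at both ages (adjusted p = 0.011 at E14.5 and 0.0073 at P9). It encodes an atypical cadherin of the polarity complex, and at both ages the highest *Isl1CKO* library lay below the lowest control. At E14.5 *Celsr1* was at 65.7 to 213 scaled counts in controls and at 57.9, 62.7, 58.1, 31.9 and 48.1 in *Isl1CKO*, a log2 change of -1.26 ± 0.35 (SE, adjusted p = 0.12). At P9 it was at 123, 91.9, 49.98, 41.3 and 85.7 in controls and at 4.26 to 35.8 in *Isl1CKO*, one of -1.97 ± 0.63 (SE, adjusted p = 0.093). *Celsr2* had 0.01 ± 0.14 (SE) and -0.71 ± 0.31 (SE, adjusted p = 0.24), and *Celsr3* had 0.19 and -0.30. The membrane protein genes *Vangl1* and *Vangl2* had 0.39 and -0.21 at E14.5 and -0.40 and 0.31 at P9. The cytoplasmic partner genes *Prickle1* and *Prickle2* had 0.83 and 0.50 at E14.5 and 0.02 and 0.90 at P9, with adjusted p of at least 0.47.

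Levels were compared between genes as CPM per kilobase of exon, scaled over all 22 libraries. In E14.5 controls the highest members were *Ctnnb1* at 44.9 ± 2.75 (SD, n = 6), *Gpc4* at 30.7 ± 9.77 and *Gsk3b* at 27.0 ± 1.27, followed by *Dvl3* at 15.1 ± 2.18 and *Wls* at 10.3 ± 1.49. *Gpc4* and *Gsk3b* lay within 1 SD of each other. In P9 controls the order was led by *Frzb* at 100.3 ± 16.4 (SD, n = 5) and *Gpc4* at 65.7 ± 19.2, with *Gsk3b* at 35.8 ± 2.41, *Wls* at 35.0 ± 8.87 and *Ctnnb1* at 32.3 ± 5.57 close together. In P9 *Isl1CKO* cells *Frzb* was at 19.8 ± 11.6 (SD, n = 6) and *Wif1*, at 0.048 ± 0.027 in controls, was at 16.7 ± 10.5, so the 2 inhibitors were at like levels within their spread.

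**Figure D3:**
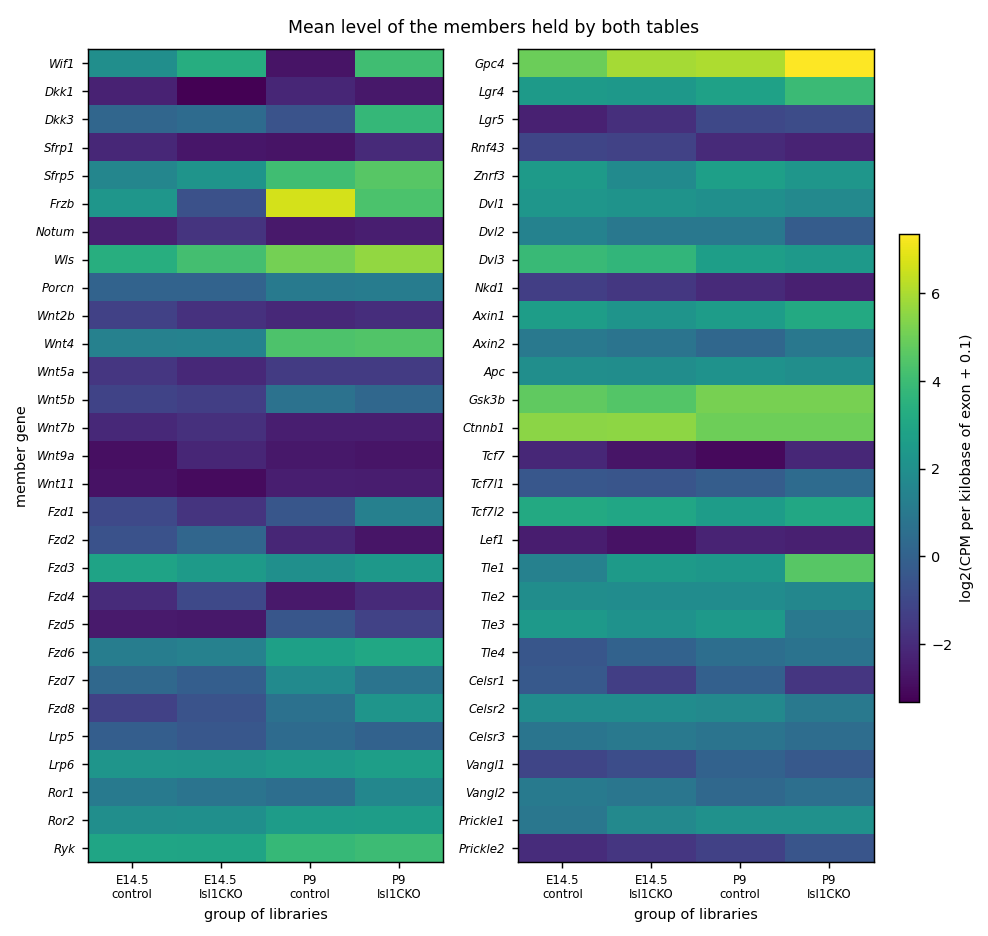
Mean level of the 58 members held by both tables in the 4 groups of libraries, as log2 of CPM per kilobase of exon plus 0.1 (colour). Frzb reaches 100.3 CPM per kilobase in P9 controls, where Wif1 is at 0.048, and Gpc4 reaches 164 in P9 Isl1CKO.

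Between the control groups, 16 of 52 members tested (30.8%) differed by age, close to the 31.0% of all genes. An unadjusted p under 0.05 was reached by 22, against 40.8% of all genes. Higher at P9 were 11, against 15.8% of all genes: the antagonist genes *Frzb*, with a log2 difference of 4.39 ± 0.57 (SE), and *Sfrp5*, with 2.56 ± 0.41 (SE), the ligand gene *Wnt4*, with 3.07 ± 0.30 (SE), *Wls*, with 1.76 ± 0.16 (SE), and *Fzd5*, *Fzd6*, *Fzd8*, *Ryk*, *Gpc4*, *Gsk3b* and *Tle1*, with 0.41 to 3.12. Lower at P9 were 5, against 15.2% of all genes: *Wif1* with -6.20, *Fzd2* with -2.13, *Dvl3* with -1.26, *Fzd3* with -0.87 and *Ctnnb1* with -0.48. The call of *Fzd2* (adjusted p = 0.043) was lost in 10 of 22 fits with a library left out, those without E14.5 control 2, 5 or 6, E14.5 *Isl1CKO* 2, 4 or 5, or P9 control 1, 2, 4 or 5, and that of *Tle1* without P9 control 2 (adjusted p = 0.056). The 8 islet hormone genes made up 2.4% to 6.2% of all counts in E14.5 controls and 51.1% to 56.4% in P9 controls. With library totals in place of TMM scaling the median over all genes moved from -0.04 to -1.21, 5 members were higher and 26 lower, and *Gpc4* (-0.07), *Tle1* (-0.21), *Ryk* (-0.30) and *Gsk3b* (-0.77) changed direction, while *Frzb*, *Wnt4*, *Sfrp5*, *Fzd5* and *Wls* were still called higher and *Wif1* lower.

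**Figure D4:**
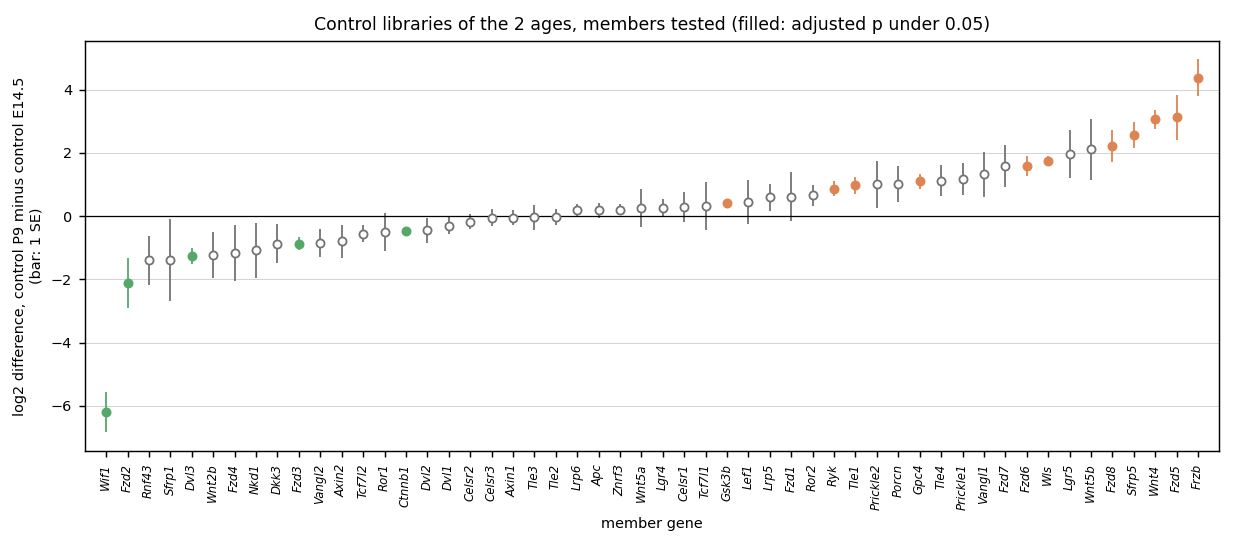
Log2 difference between control libraries at P9 (n = 5) and at E14.5 (n = 6), with 1 standard error, for the 52 members tested, in order of size; filled points have an adjusted p under 0.05. Wif1 is at -6.20 and Frzb at 4.39, the 2 ends of the order.

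A further 99 genes were other ligands, R-spondins and surface proteins, antagonists, relay, nuclear and polarity genes, and β-catenin target genes outside the 60. Of these 99, 68 were tested at E14.5 and 60 at P9, and the median log2 changes were -0.02 and 0.02. At E14.5, 1 was called, against 1.43% of all genes, and this was *Igfbp4*, which encodes a secreted binding protein known to act on Wnt receptors. Its controls averaged 122 ± 42.4 scaled counts (SD, n = 6), its *Isl1CKO* libraries 307 ± 122 (SD, n = 5), for a log2 change of 1.33 ± 0.29 (SE, adjusted p = 0.039). At P9, 2 were called higher and none lower, against 4.81% of all genes. *Gpc6*, another glypican gene, went from 12.4 ± 7.04 (SD, n = 5) to 148 ± 106 (SD, n = 6), a log2 change of 3.57 ± 0.77 (SE, adjusted p = 0.013). *Cd44*, a cell-surface glycoprotein gene included as a β-catenin target, went from 497 ± 260 to 1306 ± 491, a log2 change of 1.39 ± 0.37 (SE, adjusted p = 0.043). None of the 12 ligand genes outside the 60 had enough counts for a test. Of 20 genes widely used as β-catenin targets, some were members and the others were among the 99. Of the 20, 14 were tested at E14.5, where *Znrf3* fell and none rose. At P9 11 were tested, and *Cd44*, already counted above, rose and none fell. Their median log2 changes were -0.19 and 0.47, beside -0.0045 and 0.023 over all genes.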

How the data were processed

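RNA from sorted tdTomato+ cells was sequenced in 22 libraries. Per the labels and the study's methods, the authors trimmed reads with cutadapt 1.18, removed ribosomal reads with Bowtie 1.2.2 and SortMeRNA, mapped the rest to GRCm38 with STAR 2.7.0c and counted reads per gene without multi-mapping reads. The deposited tables hold these raw counts per Ensembl gene, with no row sum under 10. Symbols came from GENCODE M21 (27078 of 27124 IDs at E14.5, 27456 of 27504 at P9), with RefSeq synonyms for the rest of the lists, and promoters from RefSeq.

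Each age was fitted with edgeR 4.0.16 (R 4.3.3): TMM, filterByExpr, glmQLFit, glmQLFTest, two-sided, adjusted by Benjamini-Hochberg over all genes tested, with a threshold of 0.05. Every adjusted p without another name is of this kind. The standard error is the log2 fold change over the square root of F. A 4-group model over all 22 libraries gave the interaction and the control ages. DESeq2 1.42.0, limma 3.58.1, other scalings and filters and leaving out each library were alternatives. The fits were also run on counts simulated with edgeR's own dispersions, which cannot test the assumptions of the model. The study calls the libraries biological replicates. The labels do not tie each library to an animal, so p-values measure the spread between these libraries. Replicate pairs differed by more than sampling noise (chi-square per degree of freedom of at least 22.4). Depth was 8477482 to 13580985 counts. All members are named, and other pathway genes where called, up to 12. The members and gene lists were chosen with earlier results of these data known.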

Additional observations from a re-analysis of the deposited data

Results flagged for a closer look

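The *Isl1CKO* effect differed between the ages by the interaction test for *Wif1*, at 6.93 on the log2 scale, and for *Dkk3*, at 4.35.

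In 12 of 190 groups of 5 or 6 libraries, 1 library lay apart from the rest by Dixon's criterion on log2(scaled count + 1), where chance gives about 1 in 20. High libraries were *Apc* in E14.5 control 1 (1169 scaled counts, the others 893 to 962), *Dvl1* in E14.5 *Isl1CKO* 4 (485, the others 294 to 338), *Wnt4* in E14.5 *Isl1CKO* 3 (264, the others 141 to 164), *Lgr5* in P9 control 1 (125, the others 7.55 to 16.3) and *Prickle2* in P9 control 3 (68.6, the others 10.5 to 15.2). P9 *Isl1CKO* library 5 was high for *Tle1* (3795, the others 984 to 1563) and for *Lrp5* (204, the others 32.8 to 60.4).

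Low libraries were *Fzd7* in E14.5 *Isl1CKO* 5 (10.5, the others 49.3 to 83.3), *Porcn* in E14.5 *Isl1CKO* 2 (14.2, the others 44.2 to 67.6), *Rnf43* in E14.5 control 4 (4.01, the others 29.4 to 81.7), *Wnt5b* in P9 *Isl1CKO* 6 (0.711, the others 17.4 to 44.0) and *Wif1* in P9 control 5 (0, the others 1.16 to 1.33, or 1 read each). *Tle1* and *Wif1* at P9 are the called results among those flagged. The call of *Tle1* held without *Isl1CKO* library 5, and that of *Wif1* held without control library 5.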

How the results depend on the processing

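All 5 calls at P9 (*Wif1*, *Dkk3*, *Gpc4*, *Tle1*, *Frzb*) held in all 11 fits with a library left out and in the 13 other settings. The count of members called was 5 to 7 with a library left out, 8 by DESeq2, which added *Fzd8*, *Lgr4* and *Celsr1*, and 18 with library totals, of which 17 were higher and 1 lower, as the median over all genes moved to 0.68. At E14.5 the count was 2 to 5 with a library left out (3 without control 1 or *Isl1CKO* 4, and 2 without control 3 or *Isl1CKO* 2, 3 or 5), 7 by DESeq2, which added *Wif1* and *Celsr1*, 6 over genes averaging at least 50 scaled counts, 5 by limma-voom and 1 without *Isl1CKO* libraries 3, 4 and 5. The call of *Frzb* at E14.5 was also lost with no filter on low counts and with limma-voom. The number with a differing effect between ages was 2 in the fit given, 2 to 3 with a library left out, 4 by DESeq2 and 12 with library totals. For the control ages it was 16, or 15 to 18 with a library left out, and 31 with library totals. Library totals also turned *Gsk3b* (0.66) and *Ctnnb1* (0.63) at P9, the interaction of *Ctnnb1* (0.57) and, between control ages, *Lrp6* (-0.98), *Ryk* (-0.30), *Gpc4* (-0.069), *Lgr4* (-0.90), *Znrf3* (-0.97), *Apc* (-0.999), *Gsk3b* (-0.77) and *Tle1* (-0.21). The cause was not tested in the fits with fewer libraries or with DESeq2. With the replicate number as a block, 4 members were called at E14.5 and 5 at P9, and the same libraries without the block gave 4 and 5. *Frzb* was the call lost at E14.5 both with and without the block. Same-numbered libraries correlated at -0.051 to 0.054, which gave no sign of pairing by number. Whether libraries shared a litter or a sorting day was not tested. Chosen after seeing the data were the fit of the same libraries without the block, that without P9 control libraries 3 and 4 (5 members called), and that without P9 *Isl1CKO* library 5 over genes averaging at least 50 scaled counts (7 called). Members at a few scaled counts could not be tested at this depth.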
